A study of Mus musculus with 6 samples.

Results

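The genes described here are the Wnt ligands, their Frizzled receptors and the secreted inhibitors of the pathway in differentiating mouse embryonic stem cells. They were chosen by name from the array annotation as Wnt, Fzd, Sfrp and Dkk genes and Frzb, and each gene was read from the probe set whose mean signal was highest. This gave 38 of the 18193 genes on the array, namely 19 ligands, 10 receptors, 5 secreted Frizzled-related inhibitors and 4 Dickkopf inhibitors. RNA of 6 samples was hybridised, 1 for each of 2 lines at days 0, 4 and 7. All cells were labelled as triple knockouts for Dnmt1, Dnmt3a and Dnmt3b, the DNA methyltransferase genes, that ubiquitously expressed a DNMT1 protein. The protein was complete in the full-length (FL) line, and in the deletion line its N-terminal 602 amino acids were missing. At day 0 the cells grew as stem cells in 10% FBS with LIF, the cytokine that holds stem cells in self-renewal. By day 4 cells had been embryoid bodies for 1 day and attached cultures without LIF for 3 days. The last 3 days, up to day 7, were in 10% KSR with Activin A at 10 ng/ml, a factor known to induce the primitive streak. The title of the first deletion sample says day 0 while its source label speaks of differentiated cells, and the title was used. Each DNMT1 form was studied in 1 line, so the form and the line cannot be told apart, and the sources used here do not say whether a line was 1 clone.

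Wnt proteins are lipid-modified glycoproteins that bind Frizzled receptors and the co-receptors LRP5 and LRP6. Binding stabilises beta-catenin, which then acts on target genes through TCF and LEF factors, while other branches act on cell polarity and calcium. Secreted Frizzled-related proteins bind Wnts outside the cell, and DKK1 binds the co-receptors. In mouse stem cells Wnt signals favour self-renewal, and in the embryo they are needed for the primitive streak.

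Levels are log2 MAS5 signals, and differences are on the same log2 scale, where 1 is 2-fold. Signals under a floor of 41.2 (log2 5.37) were set to it, so a difference from a level at the floor is a lower bound. A gene counted as measured where its mean signal over the 6 arrays reached the floor, which held for 27 of the 38 genes and for 13277 genes in all. There were no replicates, since each line had 1 array a day. A called change is an adjusted p under 0.05 from limma with line and day as additive factors and Benjamini-Hochberg adjustment over all 13277 genes. Nothing says that samples came from repeated cultures, and the number of arrays limits the precision. For changes between days the p-values set a change against how far the courses of the lines differed over all 3 days. For the line difference they set it against how far it varied over the 3 days, which is no spread between lines of 1 form. In both cases limma combined this spread, with 2 residual degrees of freedom, with a spread drawn from all genes. The latter had 5.63 prior degrees of freedom, so most of the spread was borrowed from other genes. Single arrays were compared by size alone, counting a difference of at least 2-fold where the brighter array was at least 2 times the floor.

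Of the 3 genes labelled as knocked out, Dnmt1 had levels between 8.37 and 9.65 and Dnmt3b between 8.21 and 9.71 over the 6 arrays, while Dnmt3a did not exceed 5.86. Where their probe sets lie relative to the deleted and the expressed sequence was not examined, so these levels do not check the labels. All 9 pluripotency markers listed for this purpose were above the floor on every array, with a summed signal between log2 16.10 and 16.94, but 3 of them, Klf4, Esrrb and Tfcp2l1, fell between days 0 and 4, with log2 changes of -3.63, -1.68 and -1.41 (limma adjusted p = 0.00074, 0.035 and 0.043). Between the same days 6 of 13 fibroblast markers fell, and 5 of 6 primed epiblast, 3 of 11 endoderm, 3 of 9 mesoderm and blood and 2 of 8 trophoblast markers rose, where 0.7% of all genes were called lower and 0.881% higher. Only 4 of 8 primitive streak and 4 of 7 neuroectoderm markers were measured, and these held 0 calls. The primitive streak marker T was not matched on the array. The epiblast marker not called was Dnmt3b, which the labels call knocked out, and without it the summed signal of the other 5 was still highest at day 4, at 14.30 and 13.51. The summed signal of 13 fibroblast markers lay at 12.71 to 13.90 at day 0, at 10.17 to 10.57 at day 4 and at 10.96 to 11.30 at day 7, with 12 to 13, 7 to 11 and 10 to 13 of them at or above the floor. That of 6 primed epiblast markers lay at 11.53 to 11.77, 13.58 to 14.36 and 11.91 to 12.28, with 5 to 6 at or above the floor at day 0 and all 6 later. For 11 endoderm markers it lay at 9.98 to 10.01, 11.57 to 12.60 and 11.02 to 12.51, and for 8 trophoblast markers at 11.93, 13.45 to 14.48 and 14.10 to 15.37. The sum of 9 mesoderm and blood markers lay at 9.35 to 10.05, 10.42 to 11.34 and 10.08 to 11.03. For 7 primitive streak markers it lay at 7.75 to 7.77, 8.70 to 10.48 and 8.67 to 9.07, of which 2 to 3 were at or above the floor at day 0, 4 to 6 at day 4 and 4 to 5 at day 7. These are bulk samples, in which fewer cells of a type and less RNA per cell cannot be told apart.

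**Figure D1:**
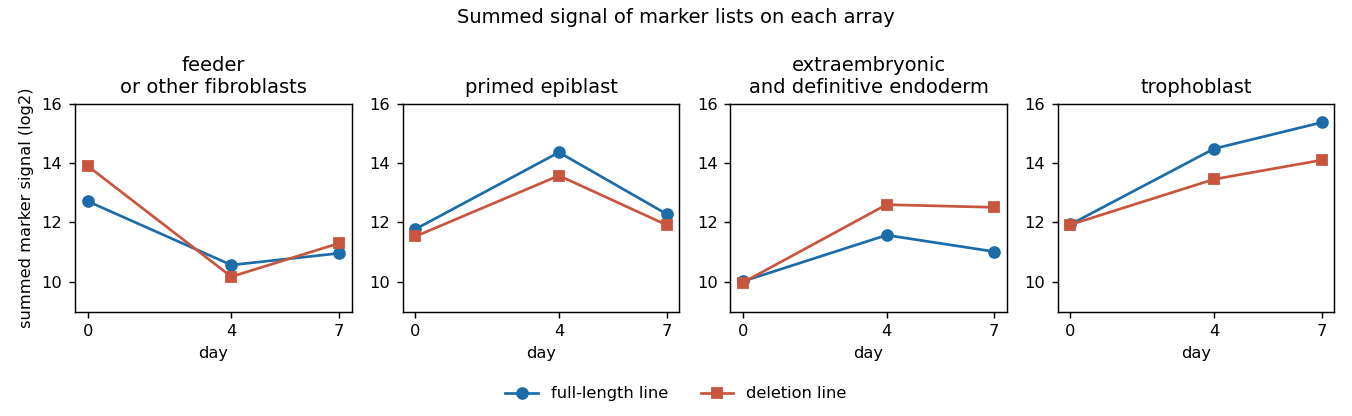
Summed signal (log2) of the fibroblast, primed epiblast, endoderm and trophoblast marker lists against day, 1 array per point, with circles for FL cells and squares for deletion cells. Fibroblast markers had their highest sums at day 0, 12.71 and 13.90, and epiblast markers at day 4, 14.36 and 13.58.

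From day 0 to day 4, when cells left LIF, Dkk1 and Wnt4 rose and Wnt5a fell, in both lines, at the probe set used for each gene. The dimmer probe sets of Dkk1 and Wnt4 did not show the rise in deletion cells. The Dkk1 and Wnt4 increases were 5.10-fold and 3.47-fold and the Wnt5a decrease was at least 4.49-fold. Wnt5a also fell between days 0 and 7, and 0 members were called between days 4 and 7 or between the lines. Wnt5a counted as measured through its day 0 arrays alone, so its calls are no independent support for its fall. At day 7 the inhibitor genes Sfrp2 and Frzb had much lower levels in deletion cells, with log2 differences of -2.91 and -2.88, a comparison of single arrays with no test.

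The 4 calls rested on the spread of 6 arrays and on the spread borrowed from other genes. Leaving out any 1 array, of the 6, ended each of them, with an adjusted p between 0.073 and 0.49 for Dkk1, 0.060 and 0.44 for Wnt4, and 0.060 and 0.39 for Wnt5a at day 4 and 0.12 and 0.33 at day 7, while every sign stayed. The log2 change then ran from 1.77 to 2.93 for Dkk1 and from 1.64 to 1.95 for Wnt4. For Wnt5a it ran from -2.42 to -1.91 at day 4 and from -2.43 to -1.91 at day 7. Wnt5a counted as measured through its day 0 arrays alone, so its sign had to stay and is no support for the fall. Of 9 other settings, 5 kept the call of Wnt4 and 3 that of each of the others, and averaging all probe sets of a gene was among those that ended all 4. With probe sets averaged the log2 change between days 0 and 4 was 1.29 for Dkk1, 1.13 for Wnt4 and -0.96 for Wnt5a.

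The promoters of Dkk1, Wnt4, Sfrp2 and Frzb are shown because both lines carry altered DNA methyltransferases, which act on cytosine in CG pairs, and the levels of these genes changed between days or differed between lines. The RefSeq promoter table (GRCm38.p6) held 29 windows for 26 of the 38 genes, with none for Wnt5a. Each sequence is the 250 bases before the gene's start, 5′ to 3′ on its own strand, with CG pairs in capitals.
Dkk1, chr19:30549497-30549746, minus strand: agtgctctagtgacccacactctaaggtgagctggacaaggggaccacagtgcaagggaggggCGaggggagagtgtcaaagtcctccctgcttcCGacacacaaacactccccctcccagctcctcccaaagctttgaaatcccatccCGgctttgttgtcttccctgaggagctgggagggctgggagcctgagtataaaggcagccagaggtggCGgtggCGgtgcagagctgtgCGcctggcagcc
Wnt4, chr4:137277385-137277634, plus strand: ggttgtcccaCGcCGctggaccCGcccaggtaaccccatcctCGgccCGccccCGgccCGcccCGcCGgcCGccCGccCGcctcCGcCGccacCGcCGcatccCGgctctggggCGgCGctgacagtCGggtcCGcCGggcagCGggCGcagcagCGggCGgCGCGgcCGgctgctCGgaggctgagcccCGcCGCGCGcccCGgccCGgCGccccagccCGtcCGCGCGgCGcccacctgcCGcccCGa
Sfrp2, chr3:83766071-83766320, plus strand: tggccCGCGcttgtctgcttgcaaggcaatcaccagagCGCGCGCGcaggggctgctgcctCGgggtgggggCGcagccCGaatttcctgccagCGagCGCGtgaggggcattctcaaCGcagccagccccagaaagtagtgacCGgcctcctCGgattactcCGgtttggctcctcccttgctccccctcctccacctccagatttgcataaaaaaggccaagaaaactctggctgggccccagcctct
Frzb, chr2:80447397-80447646, minus strand: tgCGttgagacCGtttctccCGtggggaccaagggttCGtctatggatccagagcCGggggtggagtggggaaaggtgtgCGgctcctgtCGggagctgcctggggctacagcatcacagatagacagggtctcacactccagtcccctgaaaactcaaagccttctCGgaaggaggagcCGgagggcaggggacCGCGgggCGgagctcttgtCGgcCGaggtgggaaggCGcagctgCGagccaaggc

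Among these windows Wnt4 held 44 CG pairs, more than 99.5% of all 32851 windows of the table, and Dkk1 held 6. Sfrp2 and Frzb held 16 each. The median was 22 over the 29 windows of the family and 6 over all windows. The sequence CTTTGAT, a TCF and LEF motif, was searched on both strands and was in 2 of the 29 windows, 1 of 2 windows of Wnt11 and 1 of 3 of Wnt5b, against 3.21% of all windows. AATNNACA, a motif of the Activin pathway factor FOXH1, was in 0 of 29, against 10.9% of all windows. A match is a string of letters, not a binding site, and no match says only that these letters are not in the window. Methylation was not measured.

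The ligands are described first. Wnt4, a ligand known from kidney and gonad development, had levels of 7.44, 9.08 and 8.56 in FL cells at days 0, 4 and 7. In deletion cells they were 5.87, 7.82 and 7.30. The levels were highest at day 4 and lower in deletion cells at each day. The change from day 0 to day 4 was called (log2 1.79, SE 0.31, limma adjusted p = 0.041), and the change to day 7 was not (log2 1.27, adjusted p = 0.10). A dimmer Wnt4 probe set went from the floor to 6.76 at day 4 in FL cells but from 5.84 to the floor in deletion cells.

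Wnt5a, the best known ligand of the beta-catenin independent branch, stood at 7.28 in FL cells and 7.79 in deletion cells at day 0. By day 4 it was at or within 0.01 of the floor in both lines, and it stayed at the floor at day 7. The fall was called at day 4 (log2 -2.17, SE 0.36, limma adjusted p = 0.037) and at day 7 (log2 -2.17, adjusted p = 0.046), and both values are lower bounds in size that share the day 0 arrays. Wnt5a passed the filter on dim genes through those day 0 arrays alone, so it had to differ between days, and the call is no independent support for the fall. Of its 3 other probe sets, 1 ran from 6.66 and 6.96 at day 0 to the floor, 1 was above the floor only at FL day 0, at 5.85, and 1 was at the floor throughout. The fibroblast markers had their highest sums on the same day 0 arrays. Whether they have a part in the Wnt5a values was not tested.

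Wnt9a, a ligand of joint development, had levels of 5.57, 7.51 and 8.20 in FL cells and 6.34, 6.39 and 7.08 in deletion cells. Its day 7 levels were the highest in each line, and the change from day 0 was not called (log2 1.69, SE 0.52, adjusted p = 0.16). The other Wnt9a probe set did not follow it and had a mean change of -0.25. Wnt8a, a ligand of the gastrulating embryo, was at the floor in both lines at day 0. It reached 7.27 and then 5.97 in FL cells, and 5.85 and then 5.63 in deletion cells. At day 4 its log2 difference, at least 1.19, was not called (adjusted p = 0.23).

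Wnt6 had levels of 6.99, 8.32 and 7.29 in FL cells and 7.34, 7.44 and 6.81 in deletion cells. A difference of more than 2-fold between days 0 and 4 was thus seen in FL cells alone, and the mean change was not called (log2 0.71, adjusted p = 0.43). Wnt7b, a ligand of lung and kidney development, had levels of 8.68, 8.39 and 8.79 in FL cells and 7.79, 8.12 and 8.70 in deletion cells. The lines were 0.89 apart at day 0 and 0.09 apart at day 7. Its second probe set went from the floor at day 0 to 6.99 and 6.88 at day 7, a mean change of 1.57 against 0.51 at the brighter one, so the size of the change depends on the probe set.

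Wnt7a, which patterns the back of the limb, took opposite courses in the 2 lines. In FL cells it went from the floor to 6.42 and 6.59, and in deletion cells from 6.76 to 5.82 and then the floor. Its other 2 probe sets were at the floor on all arrays but FL day 4, where they read 5.47 and 5.51. Wnt11, a ligand of cell movements in gastrulation, stayed between 5.95 and 6.60, with levels of 5.95, 6.36 and 6.13 in FL cells and 6.34, 6.60 and 6.34 in deletion cells. Wnt10a, a ligand of tooth and hair development, stayed between the floor and 6.29, and Wnt2b between the floor and 5.82.

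The other 9 ligands had mean signals below the floor. Wnt1, Wnt2, Wnt3, Wnt3a, Wnt8b, Wnt9b and Wnt16 were at or below it on all 6 arrays. Among them are Wnt3 and Wnt3a, known for their roles in the primitive streak and the tail bud. Wnt3 was read by a single probe set whose suffix marks probes that can also match other sequences. Wnt10b reached 6.53 and 6.0 in FL cells at days 4 and 7 and was at the floor elsewhere. Wnt5b was above the floor only on the FL arrays of days 0 and 4, at 5.55 and 6.0. Wnt2b, with a mean signal of 41.2, was just inside the limit and Wnt10b, with 40.4, just outside. A level at the floor is not evidence that a gene was silent.

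**Figure D2:**
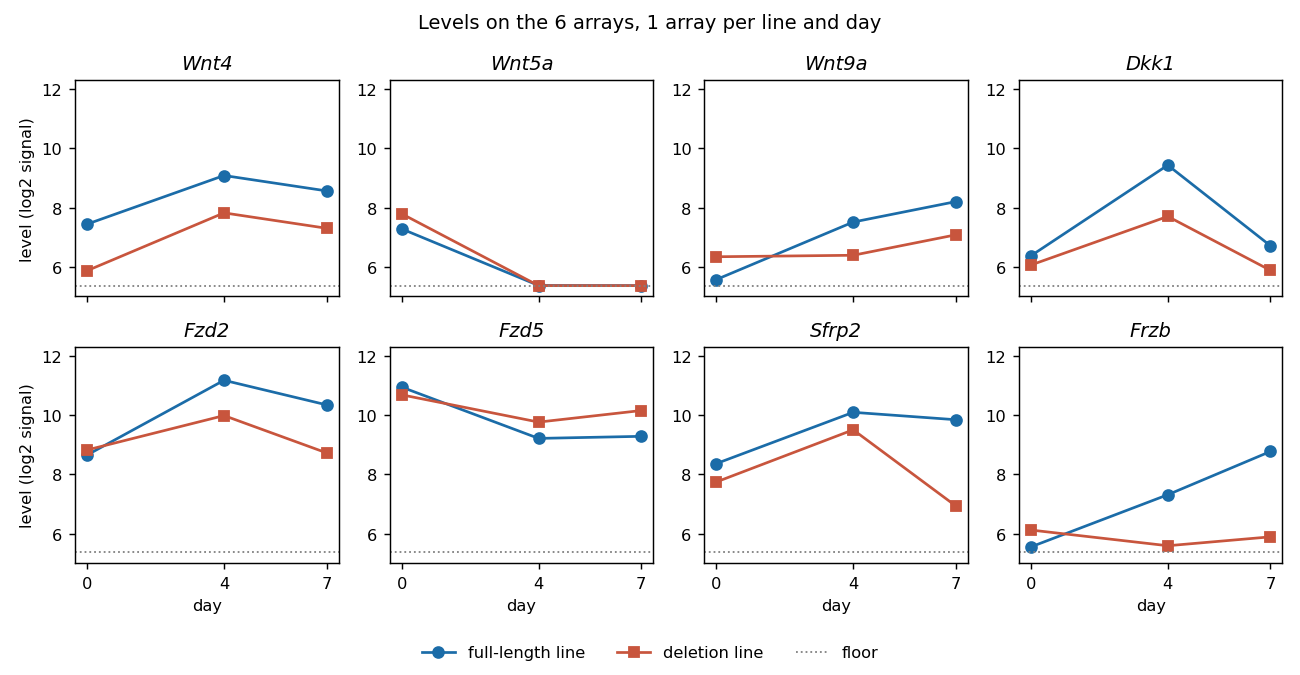
Levels (log2 signal) of 8 of the genes against day, 1 array per point, with circles for FL cells, squares for deletion cells and a dotted line for the floor at 5.37. Wnt4 and Dkk1 were highest at day 4 in both lines, Wnt5a dropped to the floor after day 0, and Sfrp2 and Frzb were far apart at day 7.

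All 10 Frizzled receptor genes were above the floor on all 6 arrays, but none was called in any comparison, where at most 1.58% of all genes were. Over the 10 receptors the median change at day 4 was 0.77, with 8 values above 0, against a median of 0.05 over all genes tested. At day 7 against day 4 it was -0.55, with 9 of 10 below 0, against -0.01 over all genes. Of all 13277 genes, 7272 were above 0 at day 4 and 6707 below 0 at day 7 against day 4. These 2 comparisons share the day 4 arrays. With probe sets averaged the medians were 0.31 and -0.34, with the same 8 of 10 and 9 of 10 counts of signs. At an unadjusted p under 0.05, 6 of 10 receptors passed between days 0 and 4 and 4 of 10 between days 4 and 7, beside 16.2% and 11.9% of all genes. The primed epiblast markers had medians of 2.23 and -1.89 on the same arrays, and their part in the receptor values was not tested.

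Fzd2 had levels of 8.65, 11.17 and 10.34 in FL cells and 8.82, 9.98 and 8.72 in deletion cells. Both lines were highest at day 4. Deletion cells were 0.17 higher at day 0, then 1.19 lower at day 4 and 1.62 lower at day 7. Its log2 difference of 1.84 at day 4 missed the threshold (SE 0.40, limma adjusted p = 0.073) and passed it with arrays scaled to equal medians (adjusted p = 0.030). Its probe set carries a suffix for probes shared between transcripts, and the other 2 probe sets gave mean changes of 1.5 and 1.22. Their mean line differences were -1.15 and -0.36, and 1 of them was already lower in deletion cells at day 0, at 8.22 against 8.76.

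Fzd4, known as a receptor of retinal blood vessels, had levels of 5.79, 7.69 and 7.11 in FL cells. They were 6.18, 7.51 and 7.16 in deletion cells, at most 0.39 from the other line on any day. The log2 difference at day 4 was 1.61 (SE 0.35, adjusted p = 0.072), and of the dimmer probe sets 1 gave 0.43 and 1 was at the floor throughout. Fzd5 ran the other way, with levels of 10.94, 9.21 and 9.28 in FL cells and 10.68, 9.76 and 10.15 in deletion cells. Both lines were highest at day 0. The log2 difference at day 4 was -1.33 (SE 0.28, adjusted p = 0.073) and its second probe set gave -0.55.

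Fzd7, a receptor linked to stem cell self-renewal, had levels of 11.11, 11.75 and 10.99 in FL cells and 11.10, 11.88 and 10.10 in deletion cells. The lines were within 0.13 of each other until day 4 and 0.89 apart at day 7. Between days 4 and 7 its log2 difference was -1.27 (SE 0.26, adjusted p = 0.15). Fzd1 had levels of 7.09, 8.21 and 7.69 in FL cells and 7.27, 8.08 and 6.68 in deletion cells. Its levels were again close until day 4 and 1.01 apart at day 7.

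Fzd3, known for its part in axon guidance, had levels of 8.34, 9.37 and 9.05 in FL cells and 7.97, 8.58 and 7.25 in deletion cells. These levels were lower in deletion cells at each day, by 1.80 at day 7. Its dimmer probe sets had mean line differences from 0 to -0.75. Among them, 1 was higher in deletion cells at day 0, at 8.05 against 7.32, and lower at day 7, at 7.20 against 8.09. Fzd6, a planar polarity receptor, had levels of 8.93, 9.60 and 9.18 in FL cells and 8.07, 9.20 and 8.36 in deletion cells. Its levels were also lower in deletion cells at each day, by 0.40 to 0.86.

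Fzd8 had levels of 7.53, 7.90 and 7.41 in FL cells and 6.16, 6.83 and 6.64 in deletion cells. Fzd9 had levels of 7.58, 7.09 and 7.24 in FL cells and 6.10, 6.88 and 6.51 in deletion cells. For both genes the gap was widest at day 0, at 1.37 and 1.48, and deletion cells were lower at each day. Fzd10 had levels of 7.83, 8.19 and 6.60 in FL cells and 7.61, 6.74 and 7.54 in deletion cells, an order of lines that differed between days.

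Among the inhibitors, Dkk1 had levels of 6.37, 9.43 and 6.71 in FL cells and 6.06, 7.70 and 5.88 in deletion cells. It peaked at day 4 in both lines and was back within 0.34 of its day 0 level at day 7. The rise was called (log2 2.35, SE 0.42, limma adjusted p = 0.042). The later difference, log2 -2.27, was not (adjusted p = 0.13). Its dimmer probe set was above the floor only at FL day 4, at 5.83. The primed epiblast marker sum was likewise highest at day 4 in both lines, and the endoderm sum was above its day 0 value. Their part in the Dkk1 values was not tested.

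Dkk3, a divergent Dickkopf gene, had levels of 7.64, 6.44 and 7.48 in FL cells and 7.39, 6.79 and 6.05 in deletion cells. At day 7 its brighter probe set was 1.43 lower in deletion cells, while the other read 7.17 and 7.15, so this line difference is uncertain. Dkk2 was above the floor on 1 array, deletion cells at day 0, where it read 6.91. The fibroblast marker sum was highest on the same array, at 13.90, and its part in the Dkk2 value was not tested. Dkk4 was at the floor on all arrays.

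Sfrp2 had levels of 8.36, 10.09 and 9.84 in FL cells and 7.74, 9.50 and 6.93 in deletion cells. From day 0 to day 4 the lines differed little in the change, 1.73 and 1.76, and from day 4 to day 7 the changes were -0.25 and -2.57. Its mean change at day 4 was not called (log2 1.74, SE 0.54, limma adjusted p = 0.17). Without the deletion day 7 array it was (adjusted p = 0.044). Sfrp2 has a single probe set.

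Frzb, the Sfrp gene first known from cartilage, had levels of 5.55, 7.31 and 8.77 in FL cells and 6.12, 5.59 and 5.89 in deletion cells. In FL cells it was higher at each later day, and in deletion cells it stayed between 5.59 and 6.12. The second probe set showed the same at lower signal, with 5.38, 5.62 and 6.92 in FL cells and the floor throughout in deletion cells. The mean change from day 0 to day 7, log2 1.49, was not called (adjusted p = 0.34).

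Sfrp1 had levels of 9.58, 9.43 and 9.95 in FL cells and 9.11, 9.05 and 9.39 in deletion cells. These were 0.38 to 0.56 lower in deletion cells at each day, and all 5 probe sets had a negative mean line difference, between -0.28 and -1.0. It was not called (log2 -0.47, SE 0.18, limma adjusted p = 0.37). Sfrp4 had levels of 8.67, 8.29 and 8.17 in FL cells and 8.40, 8.82 and 7.67 in deletion cells. Sfrp5 had levels of 6.19, 6.66 and 5.92 in FL cells and 6.06, 5.95 and 6.31 in deletion cells. Neither gene held one order of lines over the days.

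Counted over the measured genes of the family, 2 of 27 rose and 1 fell between days 0 and 4, and 11 (40.7%) had an unadjusted p under 0.05, beside 16.2% of all genes. Over all genes 0.881% were called higher and 0.7% lower, 1.58% in all. The median change was 0.52, against 0.05 over all genes. Between days 0 and 7, 1 gene fell and 0 rose, where 0.392% and 0.64% of all genes were called (1.03% in all), and 5 (18.5%) had an unadjusted p under 0.05, close to the 17.3% of all genes. Between days 4 and 7, 0 of 27 were called by limma, where 0.0151% of all genes were, and 6 (22.2%) had an unadjusted p under 0.05, beside 11.9% of all genes. Since a gene could pass the floor through its bright arrays alone, these counts describe the measured genes and not all 38.

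In FL cells 12 of 27 genes were at least 2-fold higher at day 4 than at day 0 and 3 were lower, where 8.14% and 5.03% of all genes were. The 12 were Wnt4, Wnt6, Wnt7a, Wnt8a, Wnt9a, Fzd1, Fzd2, Fzd3, Fzd4, Frzb, Sfrp2 and Dkk1. In deletion cells 6 were higher and 1 lower, where 6.26% and 4.07% of all genes were. Higher in both lines were Wnt4, Fzd2, Fzd4, Sfrp2 and Dkk1, a pattern that 3.07% of all genes showed. Wnt5a was the 1 gene lower in both lines, as were 1.72% of all genes.

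From day 4 to day 7, 2 genes were at least 2-fold higher and 4 lower in FL cells, where 5.2% and 3.14% of all genes were. Deletion cells had 0 higher and 7 lower, where 4.78% and 5.97% of all genes were. The 7 were Fzd1, Fzd2, Fzd3, Fzd7, Sfrp2, Sfrp4 and Dkk1, and Dkk1 alone was also among the 4 of FL cells, which held Wnt6, Wnt8a and Fzd10 besides. In both lines together 0 genes were higher and 1 was lower, where 1.4% and 0.851% of all genes were. Against day 0, day 7 levels were at least 2-fold higher for 7 and lower for 3 genes in FL cells, where 9.96% and 4.27% of all genes were. In deletion cells Wnt4 was higher and 4 genes were lower, where 6.25% and 4.72% of all genes were. Wnt4 was thus higher and Wnt5a lower in both lines, as were 2.36% and 1.33% of all genes. Whether the lines differ in these changes could not be tested with 1 array each.

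**Figure D3:**
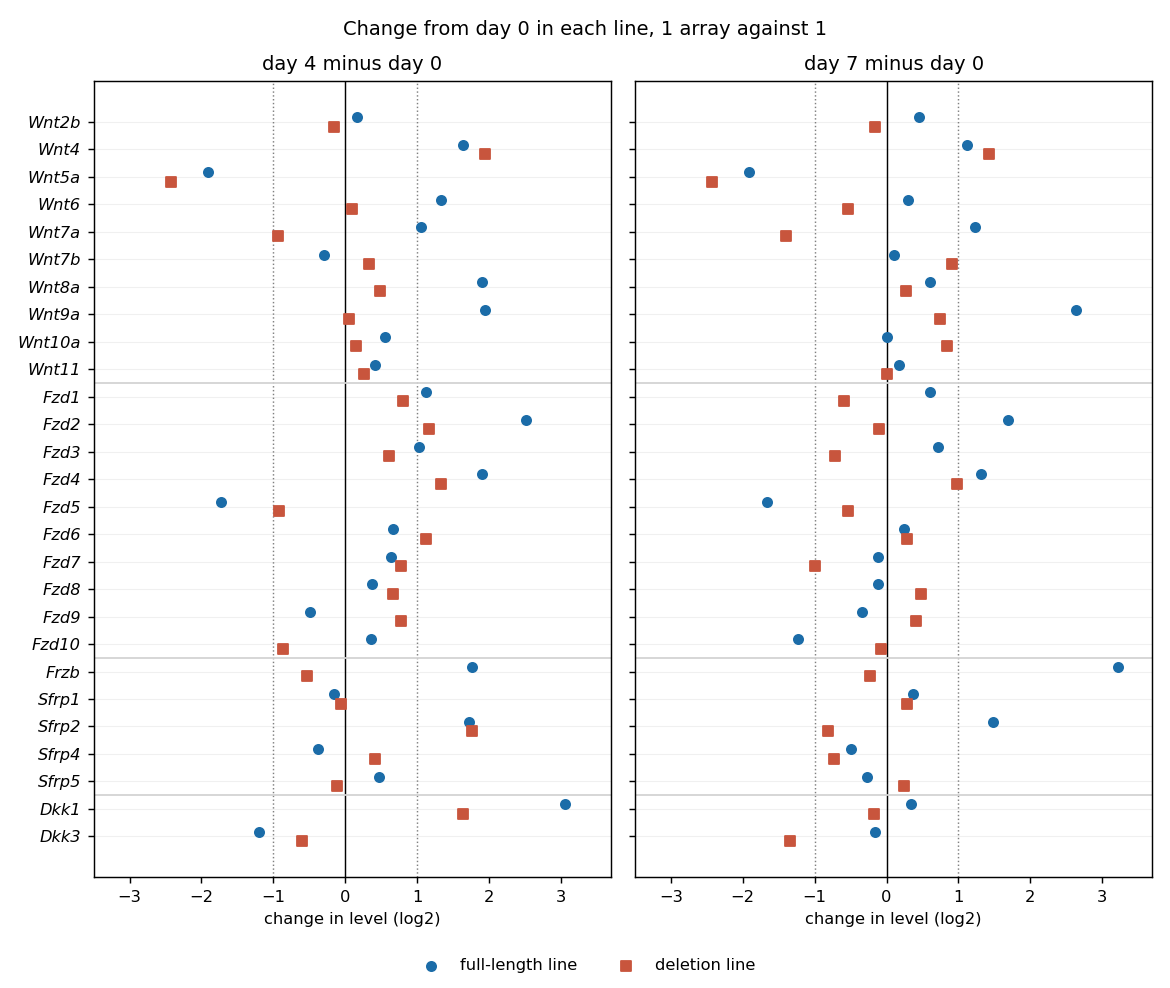
Change in level (log2) from day 0 to day 4, left, and to day 7, right, for the 27 measured genes, 1 array against 1, with circles for FL cells and squares for deletion cells and dotted lines at 2-fold. Most points at day 4 lie right of 0 in both lines, and at day 7 Frzb, Wnt7a, Sfrp2 and Wnt9a show wide gaps between the lines.

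The comparison of the lines asks how the family differs between cells with the deleted and the complete DNMT1. Over the 3 days 23 of 27 genes had a lower mean level in deletion cells and 4 a higher one, with a median difference of -0.42, against -0.06 over all genes tested. Of all 13277 genes, 7640 were lower and 5637 higher, so the array as a whole leaned the same way. None was called by limma (0% of all genes were), with the lowest adjusted p at 0.27 for Wnt4, and 9 (33.3%) had an unadjusted p under 0.05 beside 12.2% of all genes. Arrays scaled to equal medians or to equal distributions left 22 of 26 genes lower in deletion cells. With probe sets averaged 23 of 27 were, with a median of -0.21. Without the day 7 array of either line 18 of 27 were.

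At day 0, 16 of the 27 genes were lower in deletion cells, 10 were higher and 1 was equal. At least 2-fold lower were Wnt4, Fzd8 and Fzd9, and higher was Wnt7a, where 2.82% and 3.15% of all genes were. The median difference was -0.22, against -0.05 over all genes. At day 4 the counts were 22 lower and 5 higher, with a median of -0.59 against -0.02 over all genes. Lower by at least 2-fold were 8 genes, namely Wnt4, Wnt8a, Wnt9a, Fzd2, Fzd8, Fzd10, Frzb and Dkk1, and 0 were higher, where 3.54% and 2.43% of all genes were.

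Day 7 gave 20 lower, 6 higher and 1 equal, with a median of -0.73 against -0.05 over all genes. Lower by at least 2-fold were 9 genes, namely Wnt4, Wnt7a, Wnt9a, Fzd1, Fzd2, Fzd3, Frzb, Sfrp2 and Dkk3, and 0 were higher, where 8.92% and 3.95% of all genes were. Wnt4 was the 1 gene of the family lower by at least 2-fold at all 3 days, by 1.57, 1.26 and 1.26, as were 0.0979% of all genes. Its dimmer probe set was higher in deletion cells at day 0, at 5.84 against the floor. At all 3 days 0 genes of the family were higher, where 0.0753% of all genes were. Marker sums differed on the same arrays. At day 0 the fibroblast sum was 13.90 in deletion cells and 12.71 in FL cells, and the mesoderm and blood sum was 9.35 and 10.05. At day 4 the primitive streak sum was 8.70 in deletion cells and 10.48 in FL cells, the trophoblast sum was 13.45 and 14.48, and the endoderm sum was 12.60 and 11.57. At day 7 the trophoblast sum was 14.10 in deletion cells and 15.37 in FL cells, and the endoderm sum was 12.51 and 11.02. The primitive streak sum was then 9.07 and 8.67, the reverse of its day 4 order. The mesoderm and blood sum was 10.42 and 11.34 at day 4 and 11.03 and 10.08 at day 7, also reversed. Their part in the line differences was not tested.

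**Figure D4:**
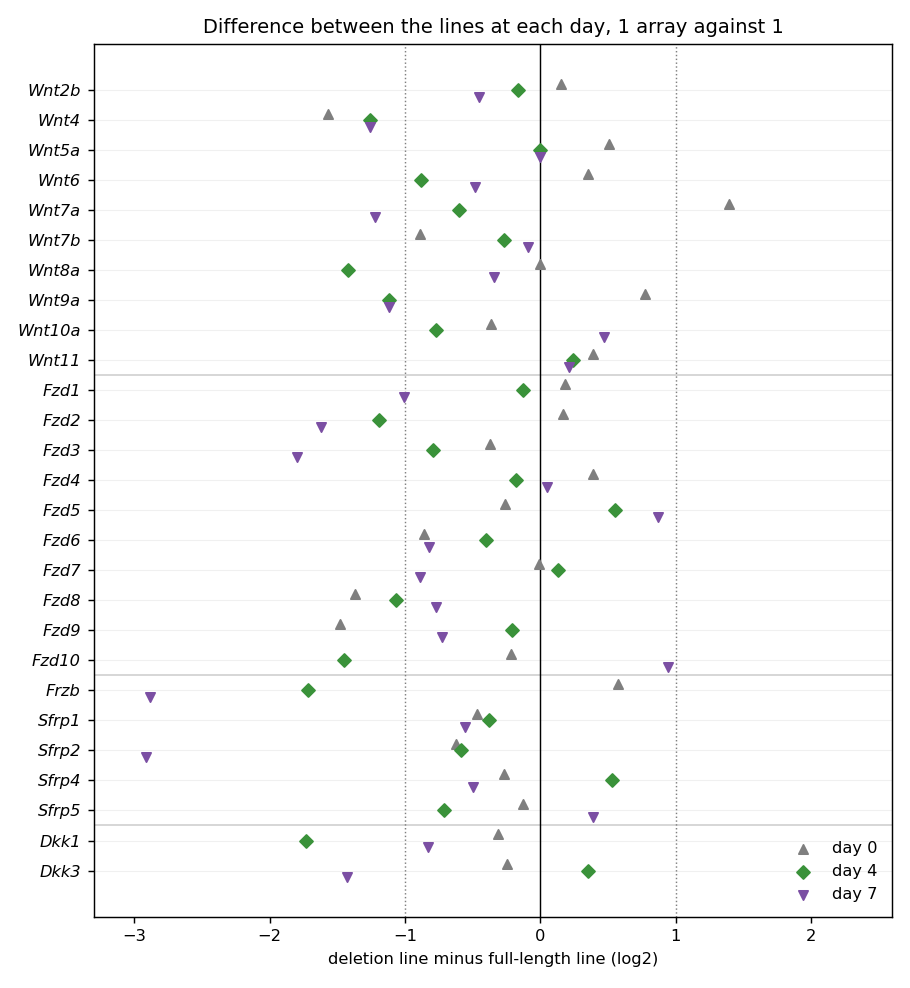
Difference between the lines (deletion minus full-length, log2) for the 27 measured genes at day 0 (triangles up), day 4 (diamonds) and day 7 (triangles down), 1 array against 1, with dotted lines at 2-fold. Most points of days 4 and 7 lie left of 0, and the day 7 points of Sfrp2 and Frzb lie at -2.91 and -2.88.

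The rest of the pathway was read from a list of 91 further genes, of which 88 were matched on the array and 72 were measured. By limma 0 of 72 were called in each of the 4 comparisons, where at most 1.58% of all genes were called. At an unadjusted p under 0.05 there were 9 between days 0 and 4, 9 between days 4 and 7, 8 between days 0 and 7 and 9 between the lines. These are 12.5%, 12.5%, 11.1% and 12.5% of the 72, beside 16.2%, 11.9%, 17.3% and 12.2% of all genes. Their medians were 0.11, -0.14, -0.02 and -0.12. By part, with Apcdd1, Lef1, Notum and Znrf3 standing in 2 parts each, the 19 measured destruction complex and dishevelled genes, 12 planar polarity genes, 11 target genes, 10 co-receptors, 10 TCF and LEF factors with coactivators, 6 secretion and ligand processing genes, 4 R-spondin and receptor turnover genes and 4 other inhibitors held 0 calls each. Between days 4 and 7, 8 of 11 target genes and all 4 R-spondin and receptor turnover genes had negative differences, with medians of -0.47 and -0.63, and Znrf3 is in both. Over the same days 3 of 4 other inhibitors had positive differences, with a median of 0.69. Between the lines, 10 of 12 planar polarity genes were lower in deletion cells, with a median of -0.30. So were 8 of 11 target genes, with a median of -0.26. Over all genes these medians were -0.01 and -0.06. Of all 13277 genes, 6707 had negative differences between days 4 and 7, and 7640 were lower in deletion cells. The counts by part were picked from all parts and comparisons, and some parts hold few genes.

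Genes of this list that differed at least 2-fold, with one sign, in both lines or on all days are named next, and none of them was called. Ccnd1, which encodes cyclin D1, had a log2 difference of -1.56 between days 0 and 7 (SE 0.34, limma adjusted p = 0.084). The target gene Sp5, a zinc finger factor, had levels of 8.08, 7.61 and the floor in FL cells and 7.27, then the floor in deletion cells. Its log2 difference of -2.31 between days 0 and 7 is a lower bound in size (adjusted p = 0.093). Axin2, a feedback target of beta-catenin, was not among these genes, with levels of 7.57, 8.37 and 7.45 in FL cells and 7.49, 7.37 and 7.05 in deletion cells. The target genes Cdx1, Cdx4, Lgr5, Mixl1, Msgn1, Rnf43 and Tbx6 had mean signals below the floor. In deletion cells Lgr5 read 6.06 and 5.69 at days 0 and 7, and Mixl1 read 5.92, 5.39 and 5.76. Both were at the floor in FL cells.

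Porcn, which encodes the acyltransferase that lipidates Wnt proteins, was lower at day 4 by 1.03 and 1.36 (adjusted p = 0.18). Ptk7, a polarity co-receptor, was lower at day 7 than at day 4 by 2.05 and 1.09 (adjusted p = 0.12). Dkkl1, a Dickkopf-like gene expressed in testis, was at or near the floor until day 4, and then 8.58 and 6.70 at day 7 (adjusted p = 0.23). Igfbp4, which encodes a binding protein that also inhibits Wnt signals, was lower at day 7 than at day 0 by 1.05 and 1.79 (adjusted p = 0.17). Prickle1, a planar polarity gene, was higher at day 4 by 1.33 and 1.0 (adjusted p = 0.083). It was also lower in deletion cells by at least 2-fold at all 3 days, with levels of 8.76, 10.09 and 9.13 in FL cells and 7.61, 8.61 and 7.63 in deletion cells (log2 -1.38, SE 0.22, limma adjusted p = 0.23). Genes whose courses differed between the lines fall outside this rule. The secretion gene Wls had levels of 7.28, 9.80 and 10.44 in FL cells and 8.12, 7.81 and 7.29 in deletion cells. At day 7 its line difference was -3.15, that of Ror2 was -2.04 and that of Notum was 1.52. For the target gene Sp8 it was -2.51 at day 4. These compare single arrays with no test.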

How the data were processed

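The data are 1 table of log2 signals for 45037 probe sets on 6 arrays. The authors made the signals with MAS5, per the submitters' processing notes. The deposited log2 values ran from 0 to 15.68. The log base was read from the values, since the trimmed mean of 2 to their power was 496.7 to 496.9 on every array, and 350 to 514 probe sets per array were listed at 0. The sources used here give no version, scaling target or handling of low values.

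Names came from the platform annotation, in which 34945 probe sets had 1 symbol, 932 several and 9160 none; all 38 genes were found in the RefSeq table by gene identifier. The floor was the median over arrays of the 40th percentile. Fits used R 4.3.3 and limma 3.58.1 with a variance trend, 2 residual and 5.63 prior degrees of freedom. The code was run on simulated data with equal noise for all genes and the same day 4 shift in both lines. That run does not check the calls for floored values or for lines that differ in their changes. The members and lists were chosen with earlier results of these data known. Named were all members (those reaching 2 times the floor with every value), pathway genes with a 2-fold difference of one sign in both lines or at all days, and Dnmt1. Axin2, Wls, Ror2, Sp8, the target genes below the floor, genes in 2 lists and the markers, Dnmt3a and Dnmt3b were named outside this rule, after their values were seen. Samples were grouped by title. The alternatives were 3 floors or pseudocounts, no filter, averaged probe sets, 2 scalings, no variance trend, no covariate and leaving out each array.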

Additional observations from a re-analysis of the deposited data

Results flagged for a closer look

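Wnt7a stood out because its change between days 0 and 7 had opposite signs in the 2 lines, each at least 2-fold. It was 1.23 in FL cells. In deletion cells it was -1.40, which makes a difference of -2.62, deletion minus full-length. Each value rests on 1 array against 1 and has the floor at one end, so both are lower bounds in size, and the difference was not tested. Its other 2 probe sets did not show it.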

How the results depend on the processing

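The line stands in the model of the time changes, so these were already compared within lines. No further pairing was possible because each group holds 1 array and the labels give no replicate numbers. Of the 27 measured genes 3 were called between days 0 and 4, and 1 between days 0 and 7. Both counts were 0 in 4 settings, namely no variance trend, no line in the model, averaged probe sets and no filter on dim genes. With the floor at the 50th percentile or with log2 of the signal plus 32 in place of a floor they were 1 and 0, the 1 being Wnt4. Leaving out 1 array gave 0 to 1 and 0.

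Over all genes 210 were called between days 0 and 4, 2 between days 4 and 7, 137 between days 0 and 7 and 0 between the lines. In that order the counts were 0, 3, 0 and 0 without the filter, 135, 1, 65 and 0 with the higher floor, 157, 1, 73 and 0 without a floor, and 13, 0, 3 and 0 with averaged probe sets. They were 319, 44, 227 and 3 with equal medians, 197, 1, 96 and 0 after quantile normalization, 16, 0, 3 and 0 without a trend and 18, 1, 12 and 0 without the covariate. Leaving out 1 array gave 0 to 129, 0, 0 to 10 and 0. The median over all genes moved by at most 0.06 in these settings. The share of calls between days 4 and 7 that were higher was 100% of 2 and 61.4% of 44 with equal medians.

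Counts of genes at least 2-fold apart between single arrays kept within 1.5 times under both scalings and both other floors. With averaged probe sets they were 1, 4 and 3 between the lines at days 0, 4 and 7, against 4, 8 and 9. Against day 0 FL cells then had 9 at day 4 and 5 at day 7, from 15 and 10. In deletion cells they numbered 2 and 2, from 7 and 5, and 3 from day 4 to day 7, from 7. Without a floor they were 3 for FL cells from day 4 to day 7, from 6, and 3 for deletion cells from day 0 to day 7, from 5.

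Signs of single genes turned when 1 array was left out. Over the 6 arrays left out, Wnt8a ran from -0.005 to 0.88 between days 0 and 7, with the lowest value without the FL day 0 array. Frzb ran from -0.27 to 2.03 between days 4 and 7 and Fzd10 from -1.54 to 0.24 between days 0 and 7, turning without the FL day 7 array. Wnt10a ran from -0.10 to 0.94 between days 0 and 7, turning without the deletion day 7 array. The line differences of Dkk3, Fzd1 and Fzd7 ran from -0.84 to 0.05, from -0.57 to 0.025 and from -0.45 to 0.06, turning without either day 7 array. A turned sign was counted here only for values that exceeded their SE or were called. The causes were not tested, and 1 array per group and signals near the floor limit all of these values.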
